A study of Mus musculus with 20 samples.

Results

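The urea cycle and amino acid catabolism genes are 34 liver genes taken from a fixed list, each measured by the brightest, in mean log2 intensity, of the probe sets that name it and no other gene. Of the 34, 30 were measured, among 18193 genes that a probe set names alone. The other genes of the list, Gls2, Sds, Sdsl and Amt, were not analysed here. Every one of the 30 lay above the intensity floor of 16 on all 20 arrays, with a median mean log2 intensity of 10.8 against 6.06 over all genes.

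Liver RNA came from Scd1-/- mice, which lack the stearoyl-CoA desaturase that makes monounsaturated fatty acids, and from Scd1+/+ mice. Both genotypes ate either chow or a very low fat diet (TD03045, Harlan Teklad), called VLF here and VLF-HC in the series design. This gave 4 groups of 5 individual livers: wild type on chow, wild type on VLF, knockout on chow and knockout on VLF. Each liver was read on 1 Affymetrix Mouse430v2.0 array, and the aim stated for the series was to find expression changes particular to the knockout on VLF. Age, sex, strain background, time on the diet and the nature of the Scd1 deletion are details that the sources used here do not give.

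The urea cycle turns ammonia into urea in hepatocytes, with its first steps in mitochondria and the rest in the cytosol. The liver also breaks down tyrosine, tryptophan, histidine, proline, lysine and glycine and takes part in branched-chain amino acid oxidation, and the carbon skeletons feed glucose and ketone formation. Urea cycle enzymes are mostly found in hepatocytes near the portal vein, while glutamine synthetase, which captures the ammonia that escapes them, is confined to cells around the central vein.

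All 20 genotype labels were matched by Scd1, whose deposited intensity was 25.9 to 57.4 in knockout livers and 6522 to 20108 in wild-type livers. The liver label was matched by hepatocyte markers, whose summed intensity over 6 genes was 91827 to 94549 on wild-type chow arrays, beside medians of 32.2 to 36.6 over all probe sets of an array. Knockout chow array 3 stood furthest from its group, with a mean absolute log2 difference of 0.188 against 0.121 to 0.175 for the other arrays, and knockout VLF array 2 came next at 0.175. The actin control probe sets, whose 3′ to 5′ ratio rises with RNA degradation, gave a log2 ratio lower in the knockout by 0.26 on VLF (exact permutation p = 0.0159, two-sided) and by 0.26 on chow (exact p = 0.00794, the smallest p possible). The Gapdh ratio differed by -0.03 on VLF (exact permutation p = 0.508) and by -0.18 on chow (exact permutation p = 0.00794). The part of RNA quality in the results was not tested, and fewer cells of a type and less RNA per cell cannot be told apart in whole liver.

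On VLF the knockout liver had less RNA for most of the enzymes measured. The kynurenine pathway enzymes Haao (log2 change -2.19 ± 0.10, estimate ± standard error) and Kynu (-1.86 ± 0.09), the histidine ammonia lyase Hal (-1.90 ± 0.20) and glutamine synthetase Glul (-1.48 ± 0.20) fell furthest. Ass1, the enzyme that joins citrulline to aspartate in the urea cycle, was the 1 gene that rose (0.70 ± 0.17), but only by the dim probe set that names it alone: a far brighter one, which also names Gm5424, fell by 0.37 (limma adjusted p = 0.0337). The direction of Ass1 is therefore uncertain. Of the 30 genes, 20 fell, 1 rose and 9 were not called (limma, Benjamini-Hochberg adjusted p under 0.05 over all 45037 probe sets). Among all 18193 genes 23.0% fell and 19.2% rose, or 42.2% called in either direction. The median log2 change was -0.61 over the 30 genes and -0.02 over all genes. Since the enzymes are bright, the 1179 genes at least as bright as their lower quartile give a nearer background: 45.7% of those fell, 33.0% rose and their median was -0.13. In 18 of the 30 the 5 knockout livers lay wholly below the 5 wild-type livers and in 1 wholly above, against 15.6% and 14.6% of all genes. Falls of 2-fold or more were found in 10 of the 30, and the share of all genes with such falls is not given here. In the same livers 9 of 9 macrophage markers rose. The hepatocyte marker sum was 88842 to 93151 in knockout and 92738 to 96769 in wild type. Quantile normalization gives all arrays the same set of values, so a sum of genes as bright as these hepatocyte markers can move little. The part of the macrophage and hepatocyte markers in the result was not tested.

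These counts depend on how arrays were scaled. With arrays centred on the spiked hybridization controls in place of quantile normalization, 12 of the 30 fell and 4 rose (Ass1, Slc25a15, Got1 and Gpt). The same scaling moved the median of all genes to 0.10 and left 5.26% of genes down and 28.0% up, so that falls were 15.8% of the calls in place of 54.5%. The median of the 30 enzymes was then -0.36. Nags, Hgd, Tdo2, Kmo, Uroc1, Ftcd, Bckdhb and Ivd lost their call with hybridization control scaling, while Otc, Oat, Glul, Hpd, Gstz1, Fah, Kynu, Haao, Hal, Prodh, Bckdha and Mccc1 were called down with either normalization. With median scaling alone 19 fell and 2 rose (Ass1 and Gpt), beside 17.1% and 22.9% of all genes. Falls were then 42.7% of the calls among all genes.

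**Figure D1:**
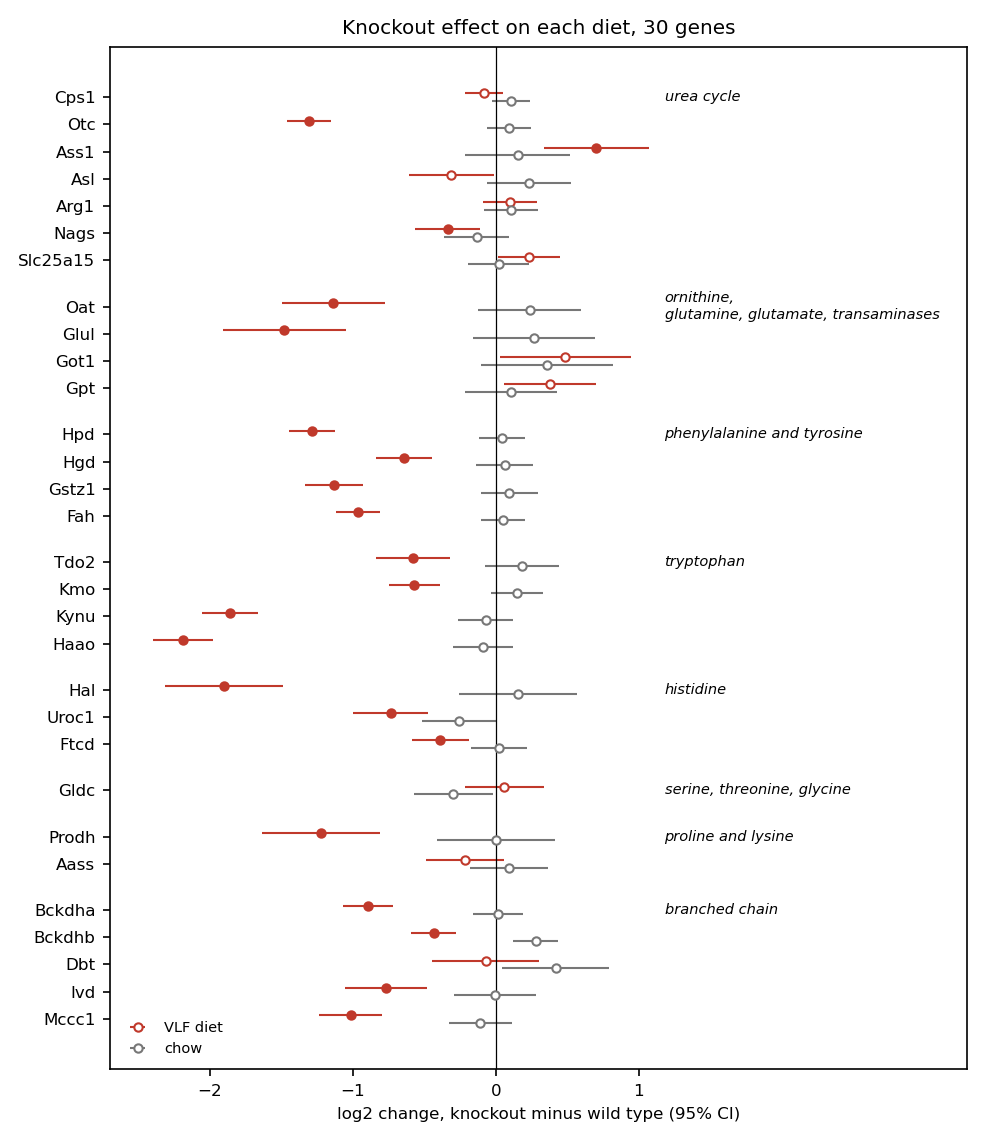
Log2 change of knockout against wild type for each of the 30 genes, by pathway, on the VLF diet (red) and on chow (grey), with 95% confidence intervals from limma; filled points were called at an adjusted p under 0.05. On VLF 20 points are filled left of zero and Ass1, from its dim probe set, to the right of it, while no chow point is filled.

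Ass1, the 1 gene called up, was so only by its dim probe set. Promoters are shown for it and for Haao, Hal and Glul, which with Kynu had the largest called falls. They are the 250 bases before the RefSeq start site in build GRCm38.p6, written 5′ to 3′ on the gene's strand, for Haao (chr17:83846791-83847040, minus strand), Hal (chr10:93488518-93488767, plus strand), Glul (chr1:153899679-153899928, plus strand) and Ass1 (chr2:31470020-31470269, plus strand). Capitals mark a match to 1 of 5 motifs searched on both strands.
Haao: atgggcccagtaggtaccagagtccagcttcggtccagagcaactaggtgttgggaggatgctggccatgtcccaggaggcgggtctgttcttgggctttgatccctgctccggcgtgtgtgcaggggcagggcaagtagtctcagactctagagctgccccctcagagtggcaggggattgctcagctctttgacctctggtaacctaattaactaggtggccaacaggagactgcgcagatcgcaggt
Hal: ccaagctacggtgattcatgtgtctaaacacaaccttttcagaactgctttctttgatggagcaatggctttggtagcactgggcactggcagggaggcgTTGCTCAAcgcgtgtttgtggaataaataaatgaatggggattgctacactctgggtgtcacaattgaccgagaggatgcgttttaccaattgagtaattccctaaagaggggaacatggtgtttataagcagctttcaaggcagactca
Glul: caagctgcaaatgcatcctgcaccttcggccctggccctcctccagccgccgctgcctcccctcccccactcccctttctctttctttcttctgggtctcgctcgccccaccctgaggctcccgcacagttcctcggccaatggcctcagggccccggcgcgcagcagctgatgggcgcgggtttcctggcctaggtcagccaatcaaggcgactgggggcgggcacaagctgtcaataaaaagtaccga
Ass1: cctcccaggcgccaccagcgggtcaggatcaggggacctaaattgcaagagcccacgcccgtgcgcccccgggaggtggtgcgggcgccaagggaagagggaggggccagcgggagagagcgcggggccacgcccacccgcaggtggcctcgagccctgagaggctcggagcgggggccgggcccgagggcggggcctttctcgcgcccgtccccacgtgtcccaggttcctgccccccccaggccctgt
Within these windows the single match was TTGCTCAA, of the C/EBP form TTGCNNAA, which starts 150 bases before the Hal start site. The RefSeq promoter table held 24 of the 30 genes. A gene was counted if the promoter of any of its start sites held a match, whereas the shares given beside it count each promoter singly. The C/EBP form occurred in the promoters of 3 of the 24 (Hgd, Hal and Aass), against 9.56% of 32851 promoters of the same kind. The short cyclic AMP element TGACG, which the full site TGACGTCA contains, also occurred in 3 (Gstz1, Ftcd and Aass), against 17.8%. TGACGTCA, the HNF4 form CAAAGTCCA and the forkhead form TGTTTAC occurred in 0 of the 24, against 1.55%, 0.384% and 3.17% of all promoters. A match describes letters in this window and shows no binding.

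In the urea cycle Otc and Nags fell, the probe sets of Ass1 went opposite ways, and Cps1, Asl, Arg1 and Slc25a15 were not called. Otc, which condenses ornithine with carbamoyl phosphate to citrulline, had the smallest adjusted p of these 7. Otc intensity was 3121, 3006, 3290.2, 3735 and 3192 in wild-type chow livers and 2603, 2754, 3171, 2632 and 2873 in wild-type VLF livers. In knockout livers Otc read 3515, 3798, 2901, 3636 and 3618 on chow and 1219, 1131, 1097, 1086 and 1129 on VLF. The 5 knockout VLF livers lay together, far below every liver of the other groups. Otc averaged 1133 ± 52.1 in knockout and 2806 ± 230.2 in wild-type VLF livers (mean ± SD, n = 5 each), a 2.47-fold fall (limma adjusted p = 1.62e-10). Both dimmer Otc probe sets fell as well, by 1.41 and 1.09 on the log2 scale.

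Ass1 was read from a dim probe set (mean log2 intensity 7.77), the only one that names the gene alone. Ass1 intensity was 159, 204, 178, 183 and 194 in wild-type chow livers and 178, 162, 174, 225 and 234 in wild-type VLF livers. In knockout livers Ass1 read 226, 151, 279, 178 and 205 on chow and 285, 494, 259.6, 309 and 267 on VLF. The knockout VLF livers lay wholly above both wild-type groups and overlapped the knockout on chow, and knockout VLF array 2 was well above the other arrays of its group. The log2 change on VLF was 0.70 ± 0.17 (limma adjusted p = 0.00374), and 0.54 without that array (adjusted p = 0.00793). The probe set that names both Ass1 and Gm5424 was not counted, as its signal cannot be given to either gene, and it was examined after the other values were seen. Its mean log2 intensity was 13.07. It read 6943, 8018, 6231, 7606 and 5954 in knockout and 7982, 7386, 10421, 8643 and 10491 in wild-type VLF livers. The groups overlapped, with knockout livers mostly lower (-0.37 ± 0.13, limma adjusted p = 0.0337; -0.12 and adjusted p = 0.732 with hybridization control scaling).

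Cps1, the mitochondrial enzyme that starts the cycle, had an estimate of -0.08 ± 0.06 (limma adjusted p = 0.399), with 9613 to 11468 in knockout and 10421 to 11785 in wild-type VLF livers. Nags makes N-acetylglutamate, without which Cps1 is inactive, and it fell by 0.34 with overlapping groups (limma adjusted p = 0.0215). The Nags call ended without knockout VLF array 5 (adjusted p = 0.0679), wild-type VLF array 2 (0.0529) or wild-type VLF array 5 (0.0672), and Nags read 0.05 with hybridization control scaling. Asl, which splits argininosuccinate into arginine and fumarate, was at -0.31 ± 0.14 (adjusted p = 0.101) and was called down without wild-type VLF array 1 (adjusted p = 0.0196). Arg1, which releases urea from arginine, was at 0.10 ± 0.09 and the mitochondrial ornithine carrier Slc25a15 at 0.23 ± 0.10 (limma adjusted p = 0.504 and 0.0917).

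The enzymes that take ammonia or ornithine away from the cycle both fell, and the transaminases did not pass the test. Glul, which makes glutamine from glutamate and ammonia, fell by 1.48 on the log2 scale (limma adjusted p = 1.21e-05). Glul intensity was 3436, 4009.5, 3436, 3569 and 1590.3 in wild-type chow livers and 3369, 3369, 3674, 4216 and 3101 in wild-type VLF livers. In knockout livers Glul read 3710.5, 3558, 3605, 3643 and 3877 on chow and 1801, 947, 1199, 1496 and 1055 on VLF. The knockout VLF livers lay below every other liver except wild-type chow array 5, which stood far below its own group and under the highest knockout VLF liver. A dimmer Glul probe set fell by 1.94. Oat, which turns ornithine towards glutamate and proline, gave 5132, 4401, 3354, 5798 and 4666 in wild-type chow livers and 3474, 3902, 6540.5, 3960.0 and 4785 in wild-type VLF livers. In knockout livers Oat read 4986, 5489, 4742, 5720.0 and 6264 on chow and 2163, 2332, 1659.9, 2444 and 1593 on VLF. All knockout VLF livers were again below every other liver, while the other groups spread widely and overlapped. Oat changed by -1.14 ± 0.17 (limma adjusted p = 3.26e-05).

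Got1, the cytosolic aspartate transaminase, was at 0.48 ± 0.22 (limma adjusted p = 0.101), and its groups overlapped. Gpt, the cytosolic alanine transaminase, was at 0.38 ± 0.15 (adjusted p = 0.0669) by its brighter probe set and was called up without knockout VLF array 1 (adjusted p = 0.0177) or wild-type VLF array 5 (0.0484). Its dimmer probe set went the opposite way, at -0.42 (limma adjusted p = 0.0375). The direction of Gpt is therefore uncertain in these data.

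All 4 tyrosine enzymes fell on VLF, and in each the knockout livers lay wholly below the wild-type livers. Hpd, which converts 4-hydroxyphenylpyruvate to homogentisate, fell by 1.29, Hgd, which opens the homogentisate ring, by 0.64, the maleylacetoacetate isomerase Gstz1 by 1.13 and Fah, the last enzyme of the pathway, by 0.97. Hpd intensity was 15029, 14148, 14365, 14477 and 15519 in wild-type chow livers and 13348, 13777, 15029, 14273 and 15220.2 in wild-type VLF livers. In knockout livers Hpd read 14751, 15348, 14365, 15519 and 15747 on chow and 5514, 6148, 5829, 7272 and 4846 on VLF. The knockout VLF livers lay far below the other groups, which overlapped among themselves. Hpd was 2.44-fold lower on VLF (limma adjusted p = 2.89e-10). Fah gave 5121, 5028, 5381, 5632 and 5618 in wild-type chow livers and 5028, 5158, 5704, 5437 and 5979 in wild-type VLF livers. In knockout livers Fah read 5661, 5338, 5175, 5810.4 and 5758 on chow and 2651, 3214, 2367, 3121 and 2669 on VLF. Again only the knockout VLF livers stood apart from the others. The Fah change was -0.97 ± 0.07 (limma adjusted p = 7.38e-09), beside -1.13 ± 0.10 for Gstz1 (adjusted p = 2.89e-08) and -0.64 ± 0.09 for Hgd (adjusted p = 2.61e-05). Hgd was not called when its probe sets were averaged (-0.22, adjusted p = 0.0840), since its dim probe set was at 0.21 (adjusted p = 0.443).

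In tryptophan breakdown all 4 enzymes of the 30 fell. The estimates of Kynu and Haao were larger than those of Tdo2 and Kmo, which act before them. Tdo2, which opens the indole ring, changed by -0.58 ± 0.12 (limma adjusted p = 0.00104) and kynurenine hydroxylase Kmo by -0.57 ± 0.09 (adjusted p = 3.66e-05). The dimmer probe sets of Tdo2 fell by 1.21 and 1.33, so the size of its fall depends on the probe set. Kynu, the kynureninase, read 762, 979.6, 632, 718 and 957 in wild-type chow livers and 743, 720.0, 807, 755 and 715 in wild-type VLF livers. In knockout livers Kynu read 726, 701, 773, 784 and 817 on chow and 220.5, 199, 199, 212 and 197 on VLF. The knockout VLF values lay close together and far below every other liver. Kynu fell 3.64-fold (limma adjusted p = 3.72e-11), and its dimmer probe set fell by 0.51. Haao, which oxidises 3-hydroxyanthranilate on the way to NAD, gave 3285, 3072, 3151, 4201 and 3705 in wild-type chow livers and 3782, 3334, 4066, 3387 and 4314 in wild-type VLF livers. In knockout livers Haao read 3443, 3256, 2828, 3407 and 3354 on chow and 869, 878, 673, 914 and 806 on VLF. It had the largest fall and the smallest adjusted p of the 30 genes, from 3777 ± 424 to 828 ± 95.1 on VLF (mean ± SD, n = 5 each). The fall was 4.57-fold (limma adjusted p = 1.07e-11).

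**Figure D2:**
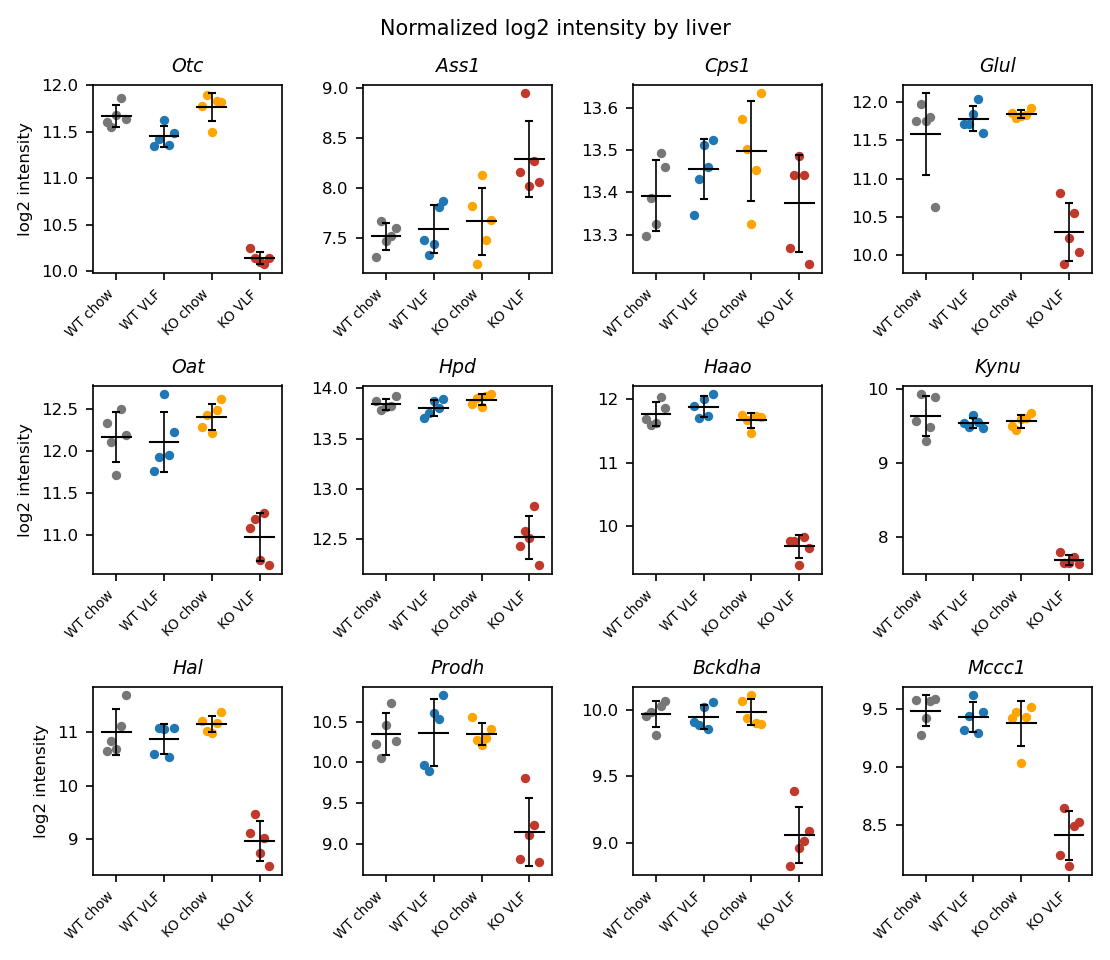
Normalized log2 intensity of 12 of the genes in each liver, by group (WT, wild type; KO, knockout), with the group mean and SD as bars (n = 5 livers a group); the vertical axes differ between panels. In Otc, Hpd, Haao and Kynu the knockout VLF livers lie apart below all others, in Ass1 (its dim probe set) they lie above both wild-type groups, and in Cps1 the groups overlap.

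The 3 histidine enzymes of the 30 fell in turn by 1.90 (Hal, which makes urocanate), 0.74 (the urocanase Uroc1) and 0.39 (Ftcd, which passes the last fragment to folate). Hal intensity was 1615, 1828, 1646, 2224 and 3322 in wild-type chow livers and 1548, 2156, 2146, 1483 and 2179 in wild-type VLF livers. In knockout livers Hal read 2371, 2081, 2033, 2307 and 2657 on chow and 555, 709, 427, 521 and 360.1 on VLF. The knockout VLF livers lay below every other liver, and wild-type chow array 5 was the highest of all. The adjusted p from limma was 3.78e-07 for Hal, 0.000118 for Uroc1 and 0.00326 for Ftcd. Hal and Uroc1 did not overlap between genotypes on VLF, whereas Ftcd did. A dimmer Uroc1 probe set fell by 0.34, so the size of the Uroc1 fall depends on the probe set.

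Of the serine, threonine and glycine genes among the 34 only Gldc, the decarboxylase of the glycine cleavage system, was measured. Outside the 34, 8 of 9 further genes of these pathways fell on VLF, beside 23.0% of all genes, as given below. Gldc intensity was 746, 662, 630.1, 694 and 1059.6 in wild-type chow livers and 602, 662, 622, 564 and 589 in wild-type VLF livers. In knockout livers Gldc read 599.5, 514, 591, 638 and 701 on chow and 581, 842, 546, 659 and 574 on VLF. All 4 groups overlapped. The estimate on VLF was 0.06 ± 0.13 (limma adjusted p = 0.947, 95% confidence interval -0.22 to 0.33).

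Prodh, which oxidises proline, fell, and Aass, which starts lysine breakdown, did not pass the test. Prodh intensity was 1191, 1063, 1406, 1692 and 1224 in wild-type chow livers and 1003, 951, 1555, 1478 and 1814 in wild-type VLF livers. In knockout livers Prodh read 1499, 1236, 1183, 1257 and 1353 on chow and 447, 893, 549.5, 601 and 436 on VLF. The knockout VLF livers lay below every other liver, by a narrow margin for array 2 of that group. Prodh changed by -1.22 ± 0.20 (limma adjusted p = 6.88e-05) and Aass was at -0.22 ± 0.13 (adjusted p = 0.239).

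In branched-chain breakdown 4 of the 5 genes among the 30 fell, all without overlap. Bckdha and Bckdhb encode the decarboxylase subunits of the branched-chain ketoacid dehydrogenase and fell by 0.89 and 0.44, while Dbt, its transacylase core, was at -0.07 ± 0.18 (limma adjusted p = 0.988). Bckdha intensity was 989.8, 1013, 897, 1043 and 1073 in wild-type chow livers and 961, 945, 1042, 928 and 1067 in wild-type VLF livers. In knockout livers Bckdha read 1074, 984, 1107, 958 and 952 on chow and 453, 671, 498, 516 and 545 on VLF. Within the knockout VLF group array 2 was highest, yet it stayed under every liver of the other groups. The leucine enzymes Ivd, isovaleryl-CoA dehydrogenase, and Mccc1, a subunit of methylcrotonyl-CoA carboxylase, fell by 0.77 and 1.02. Mccc1 gave 763, 621, 685, 759 and 771 in wild-type chow livers and 641, 695, 786, 629 and 711 in wild-type VLF livers. In knockout livers Mccc1 read 689, 711, 527, 691 and 732 on chow and 303, 401, 284, 361 and 370.1 on VLF. Knockout VLF livers again lay wholly below the rest, and the closest other value was that of knockout chow array 3. Adjusted p values from limma were 1.03e-07 for Bckdha, 0.000131 for Bckdhb, 0.000183 for Ivd and 3.28e-07 for Mccc1. The dimmer probe sets of Ivd and Mccc1 fell by 1.46 and 1.16, so the size of the Ivd fall depends on the probe set.

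On chow the knockout had no called change in these genes. Limma called 0 of the 30, with 3 at an unadjusted p under 0.05, against 2.92% of all genes called. With median scaling alone 3 rose (Cps1, Kmo and Bckdhb), where 6.95% of all genes rose and falls were 15.5% of the calls among all genes in place of 58.1%. Estimates ran from -0.30 (Gldc) to 0.42 (Dbt), with a median of 0.09. Bckdhb had the smallest adjusted p: its knockout chow livers read 1224 to 1419 and lay wholly above the wild-type livers at 974 to 1132 (0.28 ± 0.07, limma adjusted p = 0.0513). No other of the 30 lay wholly above or below on chow, and 2.45% of all genes lay wholly above. Bckdhb was called up without knockout VLF array 1 (adjusted p = 0.0435) or 2 (0.0305), knockout chow array 2 (0.0450) or wild-type VLF array 4 (0.0495). Dbt (0.42 ± 0.18, limma adjusted p = 0.181) was called up without wild-type chow array 5 (adjusted p = 0.0449). Gldc was at -0.30 ± 0.13 (adjusted p = 0.192). Haao, which fell furthest on VLF, was at -0.09 ± 0.10 on chow, and Otc at 0.09 ± 0.07.

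In wild-type livers no gene of the 30 was called between the diets. Limma called 0 of 30, with 2 at an unadjusted p under 0.05 (Otc at -0.22 ± 0.07 and Gldc at -0.29 ± 0.13), against 1.58% of all genes called. The smallest adjusted p was 0.182, for Otc, and all 30 genes overlapped between the diets, where 4.26% of all genes did not. The median estimate was -0.02. Falls were 49.5% of the calls among all genes, and 33.1% with median scaling alone. Kynu was at -0.10 ± 0.09, Glul at 0.20 ± 0.20 and Ass1 at 0.07 ± 0.17.

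In knockout livers the same diet change came with falls in 23 of 30 genes and rises in 2, against 17.7% and 17.0% of all genes and 43.7% and 32.9% of the 1179 bright genes. This comparison shares its VLF arrays with that of the genotypes on VLF, so their values stand side by side and do not support each other. Hal changed by -2.19 ± 0.20 (limma adjusted p = 7.18e-08), Haao by -1.98 ± 0.10 (3.93e-11), Kynu by -1.89 ± 0.09 (3.17e-11) and Otc by -1.62 ± 0.07 (9.52e-12). The median was -0.79, and in 20 genes the VLF livers lay wholly below the chow livers, against 13.0% of all genes. Asl fell here, from 5653 ± 178 to 3210.5 ± 344 (-0.82 ± 0.14, limma adjusted p = 0.000145), although it was not called between the genotypes on VLF. Ass1 (0.62 ± 0.17, adjusted p = 0.0104) and Slc25a15 (0.31 ± 0.10, adjusted p = 0.0301) rose, while the brighter probe set shared by Ass1 and Gm5424 fell by 0.48 (limma adjusted p = 0.00711). Cps1, Arg1, Got1, Gpt and Gldc were not called. With hybridization control scaling 16 fell and 6 rose, and Nags, Hgd, Uroc1, Ftcd, Aass, Bckdhb and Dbt lost their call. Under that scaling 37.4% of all genes rose and 4.79% fell, with a median of all genes of 0.27.

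Several of these weaker calls lay near the threshold (limma adjusted p = 0.0243 for Nags to 0.0441 for Dbt) and ended when any 1 of several arrays was left out. Between the diets in knockout, the call ended for Slc25a15 without knockout VLF array 4 or 5 or knockout chow array 1, 2 or 4 (limma adjusted p up to 0.0927). It ended for Nags without knockout VLF array 3 or 5 or knockout chow array 4 or 5 (adjusted p up to 0.0768). For Uroc1 it ended without knockout VLF array 1 or 3 or knockout chow array 2, 4 or 5 (adjusted p up to 0.107), and for Aass without knockout VLF array 2, 3 or 5 or knockout chow array 2, 3 or 5 (up to 0.0965). The Dbt call ended without most single knockout arrays (all but knockout VLF array 2) and without wild-type VLF array 2, 3 or 5 or wild-type chow array 4 (adjusted p up to 0.109).

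Whether the knockout effect differed between diets was tested by the interaction of genotype and diet. The effect on VLF was lower than that on chow for 18 of 30 genes and higher for 0, with 12.1% of all genes called in each direction and 24.2% in either, and 40.5% lower and 26.3% higher among the 1179 bright genes (limma, adjusted p under 0.05; of the 30, 1 was higher and 20 lower at an unadjusted p under 0.05). Haao had the largest difference (-2.10 ± 0.14, limma adjusted p = 7.07e-09), followed by Hal (-2.06 ± 0.28, 2.44e-05) and Kynu (-1.79 ± 0.13, 2.23e-08). Every tyrosine and tryptophan enzyme of the 30 was among the 18. Of these, Hgd, Tdo2 and Kmo lost the call with hybridization control scaling (limma adjusted p = 0.241, 0.150 and 0.191), and Hgd also with averaged probe sets (0.0862). In the urea cycle Otc alone was among the 18 (-1.40 ± 0.10, limma adjusted p = 2.34e-08). Of further genes of these pathways, 2 of 3 for phenylalanine and tyrosine and 4 of 7 for tryptophan were called lower. For Ass1, called up on VLF and not on chow, the difference was 0.55 ± 0.25 and did not pass the test (adjusted p = 0.152), nor did it for Nags (0.510) or Uroc1 (0.0709). Uroc1 was called without knockout VLF array 2 (adjusted p = 0.0289) or knockout chow array 3 (0.00848). It was also called lower with median scaling, a mean log2 filter of 6, averaged probe sets, a replicate block or array weights. The dimmer Uroc1 probe set was called lower as well (-0.31, limma adjusted p = 0.0366). Asl (-0.54 ± 0.20, adjusted p = 0.0703) was called without knockout VLF array 2, wild-type VLF array 1 or wild-type chow array 5 (down to 0.0157), and Dbt without wild-type chow array 5 (0.0358). Median scaling, that filter or array weights also gave a call for Asl. The Ftcd call (adjusted p = 0.0382) ended without any of 11 single arrays: knockout VLF array 1 or 3, knockout chow array 1, 2 or 5, wild-type VLF array 2, 3 or 5, or wild-type chow array 1, 2 or 3 (up to 0.0753). With hybridization control scaling 11 of the 30 were lower and 2 higher (Gldc, and Ass1 by its dim probe set), beside 3.40% and 21.8% of all genes and a median of all genes of 0.29.

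The size of the change differed between livers of the knockout on VLF. Against the mean of wild-type chow livers, the median log2 deviation over the 30 genes was -0.66, -0.46, -0.82, -0.63 and -0.81 in knockout VLF arrays 1 to 5. Across the other groups it lay between -0.15 and 0.16. Array 2, which stood furthest of the knockout VLF arrays from its group over all probe sets, had the smallest median deviation of the knockout VLF group. Without that array 20 genes fell and 1 rose on VLF, beside 24.5% and 19.4% of all genes. The interaction was then called lower for 20, beside 12.1% of all genes. Without knockout chow array 3 it was called lower for 19, beside 12.5% of all genes. In that fit 21 genes fell between the diets in knockout, beside 19.1% of all genes.

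**Figure D3:**
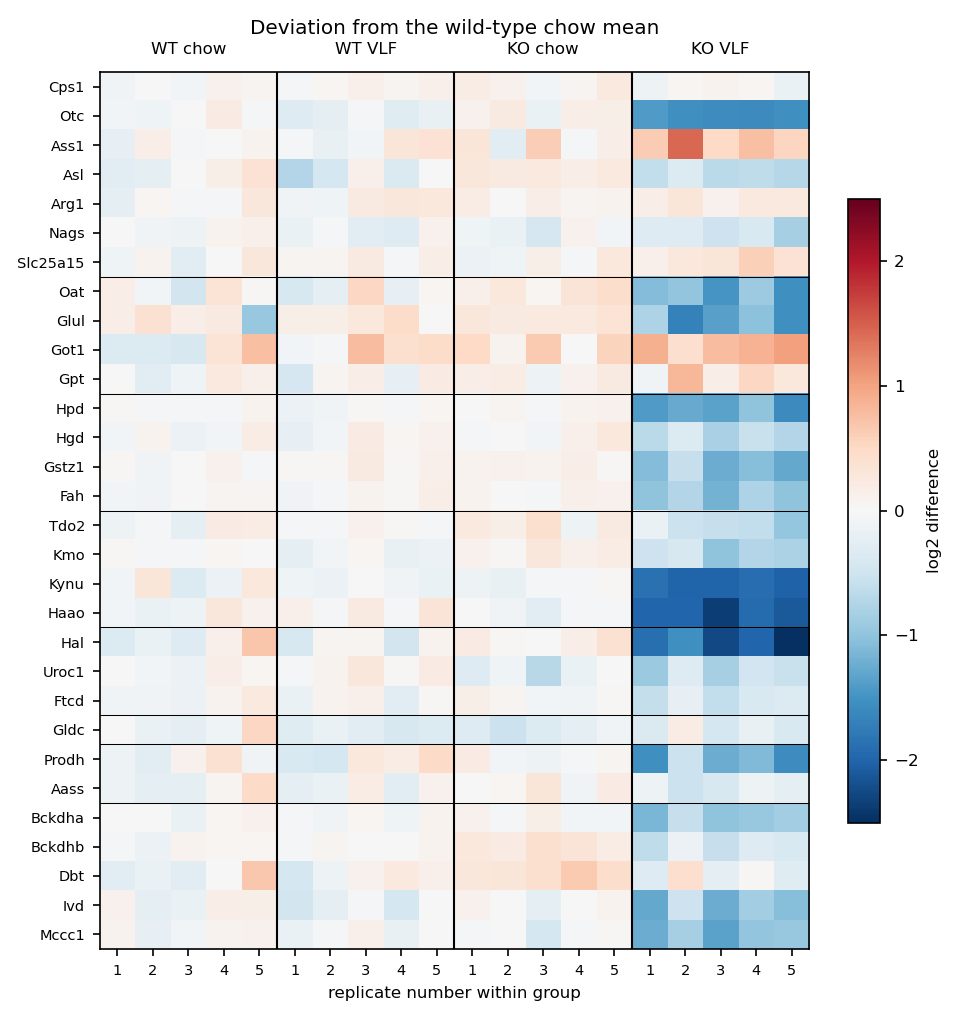
Log2 deviation of each of the 30 genes (rows, by pathway) from its wild-type chow mean in each of the 20 livers (columns, by group; replicate numbers do not link groups); blue is lower and red is higher. The blue block covers the knockout VLF livers for most rows. It is faint or absent in Cps1, Arg1, Slc25a15, Got1, Gpt, Gldc, Aass and Dbt, and Ass1, from its dim probe set, is red.

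Other enzymes of the same pathways were read from lists chosen beside the 34. Of 59 such genes 52 were measured. On VLF 38 fell, 4 rose and 10 were not called, with a median of -0.87. Over all genes 23.0% fell and 19.2% rose, and both shares were larger among the bright genes described above. With hybridization control scaling, an alternative added for these lists after the data were seen, 34 fell and 6 rose. Under that scaling 5.26% of all genes fell and 28.0% rose. The same shares stand beside the counts of single lists on VLF given below. On chow the smallest limma adjusted p among the 52 was 0.0572, for Tat. The 4 that rose on VLF were asparagine synthetase Asns (2.93 ± 0.37), the mitochondrial arginase Arg2 (2.37 ± 0.18), the mitochondrial alanine transaminase Gpt2 (0.74 ± 0.15) and Aldh18a1, which makes the precursor of proline and ornithine (1.50 ± 0.09), with limma adjusted p values of 4.87e-06, 9.01e-09, 0.000740 and 5.23e-10. Around the urea cycle Car5a, the carbonic anhydrase that supplies bicarbonate to Cps1, fell by 3.21 (limma adjusted p = 3.64e-11). Car5a read 50.8 to 81.8 in knockout VLF livers and 507 to 722 in wild-type VLF livers, with no overlap. The aspartate-glutamate carrier Slc25a13 and the aspartoacylase Aspa fell by 1.00 and 1.17.

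In tryptophan breakdown the kynurenine formamidase Afmid (-1.82 ± 0.23), the aminotransferase Aadat (-1.32 ± 0.12) and the glutaryl-CoA dehydrogenase Gcdh (-1.12 ± 0.06) were among 4 of 7 that fell. Histidine's Amdhd1, which acts between Uroc1 and Ftcd, fell by 1.91 (limma adjusted p = 1.89e-07). Qdpr and Pcbd1, which regenerate the cofactor of phenylalanine hydroxylase, fell by 0.80 and 0.75, while the tyrosine transaminase Tat was at 0.44 ± 0.19 (limma adjusted p = 0.0780). Among glycine and serine genes 8 of 9 fell, with the smallest adjusted p values for Shmt1 (-1.62 ± 0.12), Glyat (-1.29 ± 0.10) and Sardh (-1.48 ± 0.11). In proline and lysine breakdown Prodh2 (-1.35 ± 0.09) and the pipecolate oxidase Pipox (-1.32 ± 0.11) fell along with Prodh. Of 17 further branched-chain genes 15 fell and 2 were not called, with the smallest adjusted p values for the thiolase Acat1 (-2.57 ± 0.13), Acad8 (-1.05 ± 0.06) and Mcee (-1.27 ± 0.08). Ppm1k, the phosphatase that activates the branched-chain dehydrogenase, fell by 2.29, and its opposing kinase Bckdk was at -0.15 ± 0.10 (adjusted p = 0.302). That pair was picked out after its values were seen.

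Of 9 liver amino acid transporters 5 fell and 2 rose (3 and 3 with hybridization control scaling). Among all genes 23.0% fell and 19.2% rose (5.26% and 28.0% with hybridization control scaling). The glutamine and histidine transporter Slc38a3 (-1.42 ± 0.10) and Slc38a4 (-0.89 ± 0.08) fell, and the mitochondrial glutamate carrier Slc25a22 (0.61 ± 0.09) and Slc38a2 (0.66 ± 0.22) rose (limma adjusted p = 4.38e-09, 1.22e-07, 2.67e-05 and 0.0266). Among 9 transcription factors and receptors known to act on amino acid enzymes 5 fell and 1 rose (2 and 2 with hybridization control scaling, where Gcgr, Klf15 and Hnf4a lost their call). The hepatocyte factor Cebpa fell by 2.02, the glucagon receptor Gcgr by 0.66 and the glucocorticoid receptor Nr3c1 by 0.85, while the coactivator Ppargc1a rose by 1.59 (limma adjusted p = 1.10e-09, 2.32e-08, 4.16e-06 and 0.000132). Cebpa averaged 663 ± 87.3 in knockout and 2683 ± 216 in wild-type VLF livers (mean ± SD, n = 5 each).

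Genes with a known place in the liver lobule were also read. Of 11 pericentral genes, which include Glul and Oat, 11 fell on VLF (10 without knockout VLF array 2, and 5 with hybridization control scaling). Of the 9 that are not among the 30 enzymes 9 fell (8 without that array, and 3 with hybridization control scaling). Among all genes 23.0% fell (24.5% without that array, and 5.26% with hybridization control scaling). Rgn, which had the smallest adjusted p (1.11e-11, limma), fell by 2.16, the ethanol-metabolising Cyp2e1 by 0.80 and the glutamate transporter Slc1a2 by 1.68. Of 8 periportal genes, which include Cps1, Arg1, Ass1 and Hal, 3 rose (Cdh1 at 2.18 ± 0.23, Hsd17b13 at 0.53 ± 0.09 and Ass1 by its dim probe set), 2 fell (Cyp2f2 at -1.09 ± 0.11 and Hal) and 3 were not called. The difference between the lists was not tested.

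**Figure D4:**
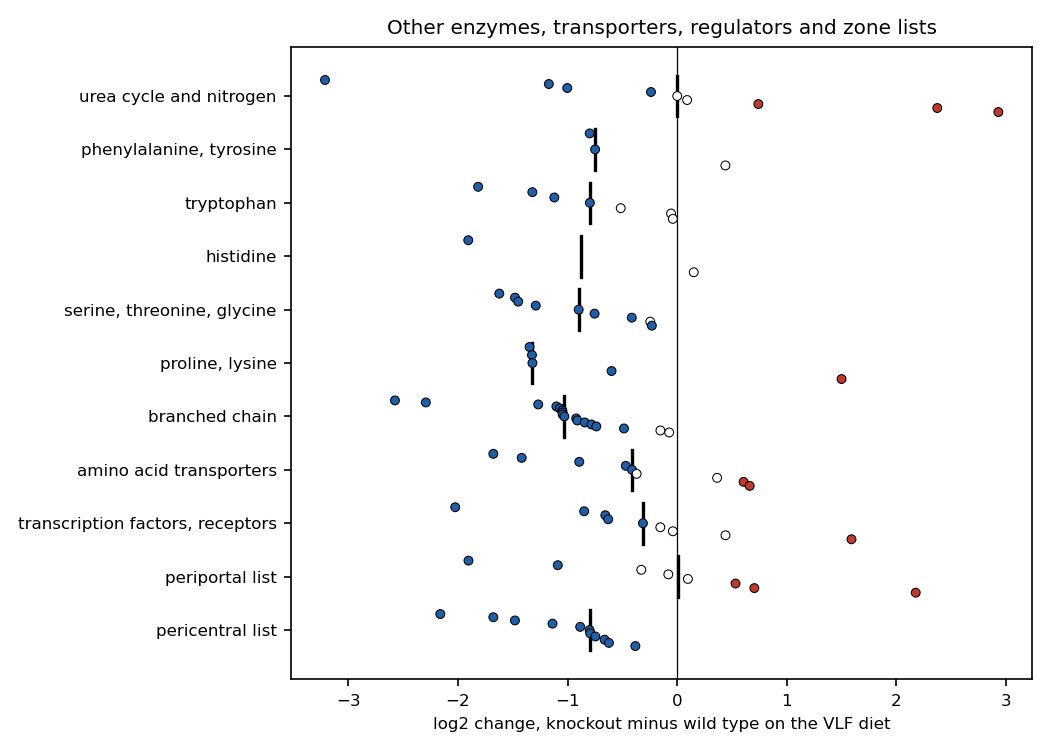
Log2 change of knockout against wild type on VLF for genes of the further pathway, transporter, regulator and lobule lists (blue, called down; red, called up; open, not called), with a bar at each list's median; the lobule lists include enzymes of the 30. All 11 pericentral genes and 15 of 17 branched-chain genes are blue, and Asns and Arg2 are red at the far right.

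Markers of other liver cells moved in the same comparison. On VLF 9 of 9 macrophage markers rose, and their summed intensity was 15644 to 21869 in knockout and 4742 to 5501 in wild-type livers. Among all genes 19.2% rose and 23.0% fell. Stellate cell and fibroblast markers rose in 5 of 7 and fell in 1, with sums of 4954 to 6465 and 2292 to 2966. Neutrophil markers rose in 3 of 3, with sums of 713 to 4613 and 138 to 179.7, and cholangiocyte markers in 2 of 5 (348 to 446 and 274 to 324). These sets cover non-hepatocyte cells, and their part in the falls was not tested. Endothelial markers rose in 1 and fell in 3 of 5 (1569.7 to 2432 and 1762 to 2163), and lymphocyte markers fell in 2 of 4 (262 to 309.8 and 289.8 to 383). Of the red cell markers Alas2 fell and Hba-a1 was at the floor in all groups (sums 89.0 to 184 and 203 to 376), and 1 of 3 pancreas markers fell (275 to 394 and 408 to 1782). Of the 6 hepatocyte markers Apob (-0.39 ± 0.06), Hnf4a (-0.31 ± 0.08) and Fgb (-0.17 ± 0.06) fell, whereas Alb was at 0.00 ± 0.02 and Ttr at -0.03 ± 0.04. With hybridization control scaling none of the 6 hepatocyte markers fell and Alb rose by 0.28, while the 9 macrophage and 3 neutrophil markers were called up under both scalings. No endothelial, lymphocyte, pancreas or stellate cell and fibroblast marker was called down with that scaling, and 1 red cell marker was. In it 5 stellate cell and fibroblast, 2 cholangiocyte and 1 endothelial marker were called up. Of all genes 5.26% then fell and 28.0% rose.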

How the data were processed

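RNA of 20 livers was labelled as biotinylated cRNA and hybridised to 1 array each. The deposited table holds a linear intensity for 45101 probe sets. The submitters' processing notes name MAS5 and RMA; the sources used here do not say which made the values. Arrays were scaled to a common median (deposited medians 32.2 to 36.6), given a floor of 16, put on the log2 scale and then quantile normalized. After 64 control probe sets were removed, 45037 were tested, of which 9117 lay at the floor throughout and counted as unchanged. Group means were fitted over all arrays with limma (version 3.58.1, R version 4.3.3, 16 residual degrees of freedom), with Benjamini-Hochberg adjustment over all probe sets and calls at an adjusted p under 0.05. The number of arrays limits the precision, and each array is 1 liver per the series design.

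Names came from the platform's annotation (34945 probe sets with 1 gene, 932 with several, 9160 unnamed), with symbols updated through a RefSeq table. A gene was read from the brightest probe set that names it alone. Genes and lists were chosen with earlier results of these data known. Each gene is named with its estimate on VLF. Values for every liver are given for the genes with the smallest adjusted p of each pathway (the next too in pathways of 4 or more) and for the highest estimate. Up to 3 genes of every other list, and those called against its majority, are named. The fit was tested on simulated data. Alternatives covered scaling, floor, dim probe sets, choice of probe set, samples in the fit, replicate block, array weights, variance model and single arrays. Figures used Python 3.11.15 and matplotlib 3.10.9.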

Additional observations from a re-analysis of the deposited data

Results flagged for a closer look

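Single livers stood far from their group in 6 of 120 sets of 5 livers tested (4 groups of each of the 30 genes), by Dixon's ratio, on the log2 scale, of the gap to the nearest liver over the whole range, with 0.71 as the critical value. Chance alone gives about 1 in 20. Knockout chow array 3 was the low one in 3 of the 6: Otc (ratio 0.713, 2901 against 3515 for the nearest liver), Haao (0.716, 2828 against 3256) and Mccc1 (0.815, 527 against 689). Knockout VLF array 2 was the high one for Ass1 (0.727, 494 against 309) and Asl (0.736, 3808 against 3157). Wild-type chow array 5 was the low one for Glul (0.833, 1590.3 against 3436). Knockout chow array 3 and knockout VLF array 2 also stood furthest from their groups over all probe sets.

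The effect of the knockout on VLF minus that on chow differed from 0 by the interaction test (limma, adjusted p under 0.05) in 18 genes. Among all genes 24.2% were called by that test, 12.1% in each direction. The differences of the 18 on the log2 scale were -1.40 for Otc, -1.37 for Oat and -1.74 for Glul. For the tyrosine enzymes they were -1.33 (Hpd), -0.71 (Hgd), -1.23 (Gstz1) and -1.02 (Fah), and for the tryptophan enzymes -0.76 (Tdo2), -0.72 (Kmo), -1.79 (Kynu) and -2.10 (Haao). Hal was at -2.06 and Ftcd at -0.41, and Prodh at -1.22. The branched-chain genes gave -0.91 (Bckdha), -0.71 (Bckdhb), -0.76 (Ivd) and -0.91 (Mccc1). With hybridization control scaling Hgd, Tdo2, Kmo, Ftcd, Prodh, Bckdhb and Ivd lost the interaction call. For Prodh, Bckdhb and Ivd the limma adjusted p was then 0.0578, 0.159 and 0.195.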

How the results depend on the processing

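Between the genotypes on VLF, 306 of 330 gene values under 11 other settings and 593 of 600 with 1 array left out kept their direction and side of the threshold; for the interaction these were 274 of 300 and 573 of 600. Read from the brighter probe set that it shares with Gm5424, an alternative added after the data were seen, Ass1 was at -0.37 on VLF and -0.48 between the diets in knockout. The counts moved most with hybridization control scaling: on VLF 12 fell and 4 rose, between the diets in knockout 16 fell and 6 rose, and for the interaction 11 were lower and 2 higher. There Nags was at 0.0530 on VLF and 0.0869 between the diets in knockout, and Uroc1 at 0.0471 between the diets in knockout. On VLF 2 genes rose with median scaling, with the compared groups alone or with array weights, and 3 with a mean log2 filter of 6. Of all genes in these fits 22.9%, 18.3%, 20.5% and 29.0% rose, in that order. On chow 3 rose with median scaling and 1 with an offset, the filter, averaged probe sets, array weights or a robust variance trend. There 6.95%, 1.63%, 4.66%, 2.05%, 1.69% and 1.57% of all genes in the fit rose, in that order. Between the diets in knockout 1 rose with median scaling, beside 16.5% of all genes. Without _x_at and _s_at probe sets Gpt read -0.42 on VLF. Median scaling left falls at 42.7% of all calls on VLF and 15.5% on chow, against 54.5% and 58.1%. The cause of these shifts was not tested.

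Leaving out 1 array gave 19 to 21 falls and 1 to 2 rises on VLF, 0 falls and 0 to 1 rises on chow, 0 of either for the diet in wild type, 19 to 23 falls and 1 to 2 rises for the diet in knockout, and 17 to 20 lower and 0 higher for the interaction. The share of all genes that fell on VLF moved too, from 19.1% without wild-type VLF array 3 to 24.8% without knockout chow array 3. The actin ratio differences ran from -0.30 to -0.23 on VLF and -0.29 to -0.21 on chow, and the Gapdh ones from -0.05 to -0.00067 and -0.21 to -0.15. Replicate numbers did not pair arrays: deviations of same-numbered arrays correlated at -0.25 to 0.27 over 30 pairs, with 6 over 0.1, and 3 of 20 arrays correlated best with their own number. With the number as a replicate block 20 genes fell and 1 rose on VLF, beside 21.9% and 18.8% of all genes. On chow 0 were called in that fit, beside 0.742% of all genes down and 0.687% up. With the diet in knockout 23 fell and 2 rose (17.3% and 16.7% of all genes). For the interaction 19 were lower (11.7% of all genes). A fit to the compared groups alone was not run for the interaction, which uses all 4 groups.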
